A study of Homo sapiens with 9 samples.

Results

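The 35 genes described here encode the enzymes that build cholesterol, the SREBP (sterol regulatory element binding protein) machinery that sets their transcription, a small group of sterol transport proteins, and enzymes of fatty acid and lipid synthesis. They were chosen as a list of names, with earlier results of these data known. All 35 were found by symbol in the table of gene counts, among its 14943 genes. By role they divide into 7 enzymes of the mevalonate branch, 11 enzymes that lead from farnesyl diphosphate to cholesterol, 5 SREBP regulators, 4 sterol transport genes and 8 genes of fatty acid and lipid synthesis. RNA with a polyA tail was sequenced from SH-Sy5y, a single human neuroblastoma line, 48 h after lipid transfection with an oligonucleotide mimic of the microRNA miR-1229-3p. There were 3 libraries each for Ctrl. (40 pmol of negative control oligonucleotide with 0 pmol of mimic), 10 nM (20 pmol of each) and 20 nM (40 pmol of mimic with 0 pmol of control oligonucleotide). Mimic and control oligonucleotide thus change in opposite directions across the groups, and their parts in a difference cannot be told apart. The series was made to look for direct targets of miR-1229-3p.

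Cholesterol is made from acetyl-CoA. Thiolase and HMG-CoA synthase open the mevalonate branch, which ends in farnesyl diphosphate. A pair of farnesyl units is then joined to squalene, oxidised, closed to the ring of lanosterol and trimmed to cholesterol. SREBP-2, the product of SREBF2, drives transcription of these enzymes, and SREBP-1, the product of SREBF1, favours the fatty acid enzymes. Both precursors sit in the endoplasmic reticulum with their escort SCAP. When sterols are plentiful, INSIG1 and INSIG2 hold SCAP there, and when sterols fall the complex moves to the Golgi, where proteases free the transcription factor. A microRNA acts by pairing its seed with the 3′ untranslated region (UTR) of a messenger RNA, which lowers that messenger.

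The mimic is shown first, since its seed fixes the letters searched for in the lipid genes. The mature miR-1229-3p (RefSeq, GRCh38.p14, chr5:179798278-179798300, minus strand, 23 bases) is printed 5′ to 3′ with its seed, bases 2 to 8, in capitals.
miR-1229-3p: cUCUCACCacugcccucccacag
The longest annotated 3′ UTR of each gene (GENCODE 44) was searched for the 8-mer GGTGAGAA and the 7-mers GGTGAGA and GTGAGAA, each written on the messenger's strand. Such a match was present in 6 of 35 members (17.1%) and in 3106 of 13740 genes whose 3′ UTR reached 50 bases (22.6%). The members with a match were MVK, NSDHL, FDFT1, INSIG2, STARD4 and ELOVL6, and FDFT1 held the only 8-mer among them. The sites of the 4 members with a match that passed the threshold in a comparison are given below with the match in capitals, because these are the messengers that could both pair with the mimic and be seen to differ.
INSIG2 3′ UTR, chr2:118110547-118110573, plus strand: gtgtggtatcGGTGAGActgaatgatt
STARD4 3′ UTR, chr5:111499211-111499237, minus strand: ggtgccttaaGTGAGAAtttctaaatg
STARD4 3′ UTR, chr5:111498192-111498218, minus strand: cattttcactGTGAGAAtgatgaattt
MVK 3′ UTR, chr12:109597910-109597936, plus strand: cttcctgcagGGTGAGAggagcaggag
NSDHL 3′ UTR, chrX:152869586-152869612, plus strand: ttaacacacaGGTGAGActttacatat
A match is a description of these letters and not a proven site, and the values of these genes are given under their roles.

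Promoters were read because SREBP acts through them, together with the factor NF-Y. In the RefSeq windows from 250 bases before to 50 bases after each start (GRCh38.p14), the NF-Y box CCAAT was searched on both strands, as was the sterol regulatory element TCACNCCAC. The box was found in 21 of the 31 members with a window (67.7%) and in 34.6% of all 35116 windows, which include several starts per gene. A member counted if any of its windows held the motif, whereas the share of all windows takes each window singly. The first share is thereby raised, and the 2 are not like measures, for the box and the element alike. The element was found in 1 member (3.23%), SREBF2, and in 1.13% of all windows. Only this exact string was searched, so an element that differs from it or lies outside the window was not counted. By role, the box was in 5 of 6 mevalonate enzymes with a window, 8 of 9 later sterol enzymes, 4 of 7 fatty acid genes, 2 of 5 regulators and 2 of 4 transport genes. ACAT2, FDFT1, SQLE and FASN had no window. A pair of windows is printed with the matched letters in capitals, SREBF2 for the element and MSMO1, the sterol enzyme with the largest fitted change at 20 nM, for its 4 boxes.
SREBF2 promoter, chr22:41832855-41833154, plus strand: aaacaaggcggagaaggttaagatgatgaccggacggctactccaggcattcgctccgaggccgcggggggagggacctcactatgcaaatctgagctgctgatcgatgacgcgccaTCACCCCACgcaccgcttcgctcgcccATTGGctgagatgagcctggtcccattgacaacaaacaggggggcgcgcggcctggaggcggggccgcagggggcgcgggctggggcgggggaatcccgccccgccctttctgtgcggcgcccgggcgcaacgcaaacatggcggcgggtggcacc
MSMO1 promoter, chr4:165327419-165327718, plus strand: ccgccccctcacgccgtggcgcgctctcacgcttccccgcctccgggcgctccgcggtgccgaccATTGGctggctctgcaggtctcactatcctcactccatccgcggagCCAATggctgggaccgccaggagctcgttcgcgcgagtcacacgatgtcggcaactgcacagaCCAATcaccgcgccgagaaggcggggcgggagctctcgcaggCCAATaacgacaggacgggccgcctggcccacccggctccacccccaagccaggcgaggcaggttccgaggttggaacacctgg
ATTGG is the box read from the opposite strand. Among members with a window, the box was in 7 of the 9 that rose at 20 nM and in 14 of the other 22, which is given as a description without a test.

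Sequencing depth per library lay between 17.4 and 28.2 M estimated counts. The third 20 nM library stood apart from the rest, at 47.4 on the first principal component of all genes (30.4% of the variance) against -17.1 to 7.72 for the other 8 libraries. Of the 35 members, 21 were higher in that library than in both other 20 nM libraries, 13 were lower than in both and 1 lay between them. The member calls at 20 nM are therefore also given without it. The surrogate variable of the fit by group, an estimated unwanted factor, was 0.907 in that library and -0.242 to 0.0602 in the other 8. The reported fit thus already set much of that library's deviation apart, so the fit without it is only a weak check. Libraries with the same number also deviated together between Ctrl. and each mimic group, so a fit blocked on that number and without surrogate variables is quoted where it changes the call of a named gene at 10 nM or 20 nM. The libraries carried the noradrenergic markers of a neuroblastoma line, with PHOX2A at 646 to 866, HAND2 at 1054 to 1259 and DBH at 1373 to 2113 CPM (counts scaled to the library total), while TH lay at 0.122 to 0.914 CPM. Of 11 noradrenergic markers, 3 passed the threshold at 20 nM (all lower, ISL1 and TH among them, also without the third 20 nM library). With the replicate block 3 higher and 2 lower passed. Of all genes, 7.8% rose and 6.08% fell at 20 nM, 9.78% and 7.99% without that library, and 7.64% and 6% with the block. The summed level of the noradrenergic markers was 6197 to 6365 CPM in Ctrl., 6575 to 7186 at 10 nM and 6323 to 7768 at 20 nM. Of 8 mesenchymal markers tested, 2 passed in each of these fits (CD44 and NT5E, both higher, at most 3.40 and 8.99 CPM in any library). The fitted difference at 20 nM was positive for 5 of the 8 and negative for 3. The summed level of the 8 was 1139 to 1221, 1108 to 1211 and 917 to 1157 CPM in the same order, with no tested marker at 0. Most of that sum was VIM, at 995 to 1043 CPM in Ctrl. and, wholly below, 776 to 991 at 20 nM. VIM's fitted log2 difference of -0.05 did not pass. The part of either marker list in the results below was not tested. A shift in the share of cells of one kind and a shift in RNA per cell cannot be told apart in such libraries.

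The first question was whether the lipid synthesis genes differed at all between mimic and Ctrl., and at which concentration. At 10 nM no member passed an adjusted p of 0.05 (edgeR's quasi-likelihood test over all 9 libraries with surrogate variables, Benjamini-Hochberg adjustment over 14943 genes), so 0 of 35 were called beside 0.649% of all genes (0.221% higher and 0.428% lower). At an unadjusted p under 0.05 there were 9 members beside 2084 of the 14943 genes, and the DESeq2 Wald test called 1, MSMO1, beside 1.46% of all genes. At 20 nM, 9 members rose and 0 fell. That is 25.7% of the 35, beside 13.9% of all genes in either direction, 7.8% higher and 6.08% lower. Of the members only ABCA1 averaged under 10 CPM. A separate fit of the genes with a mean of at least 10 CPM called 22.5% of them at 20 nM (11.7% higher and 10.8% lower), nearer to the members' share. The 9 were HMGCS1, MVK, IDI1, CYP51A1, MSMO1, DHCR7, ACLY, SCD and FADS1. With the replicate block in place of surrogate variables, HMGCS1, IDI1, MSMO1 and FADS1 lost this call. There PMVK and TM7SF2 also rose and INSIG2 fell, beside 13.6% of all genes (7.64% higher and 6% lower). With concentration as a number (the dose trend, whose fold change is given per 20 nM), the same 9 genes rose together with PMVK and NSDHL, and INSIG2 and STARD4 fell. Those 13 genes are 37.1% of the members, beside 17.5% of all genes, of which 9.84% rose and 7.69% fell. The separate fit of genes with a mean of at least 10 CPM called 32.1% of them in the dose trend (16.3% higher and 15.7% lower). Between 20 nM and 10 nM, CYP51A1 and ACLY rose and no member fell. That is 5.71% of the members, beside 2.79% of all genes (1.91% higher and 0.883% lower) and 4.86% in the fit of genes with at least 10 CPM. The comparisons with Ctrl. share its 3 libraries, so they are given side by side and not as repeats of each other.

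The changes were small. The fitted changes of the members at 20 nM ran from -0.53 to 0.50 on the log2 scale with a median of 0.10, and the median over all genes was -0.00016. At 10 nM the members' median was 0.05, in the dose trend 0.13, and between 20 nM and 10 nM 0.05. In CPM scaled by TMM (the unit of every level below, without correction for surrogate variables), all 3 libraries lay above all 3 Ctrl. libraries for 9 members at 10 nM, beside 10.1% of all genes, and for 13 at 20 nM, beside 15.2%. INSIG2 and LPIN1 lay wholly below Ctrl. at 10 nM, beside 9.9% of all genes, and INSIG2 and STARD4 at 20 nM, beside 13.7%. Against 10 nM, the 20 nM libraries lay wholly above for 9 members, beside 7.92%, and wholly below for STARD4 and ABCA1, beside 6.32%. Of the 18 sterol synthesis enzymes, 6 lay wholly above Ctrl. at 10 nM and 8 at 20 nM, and 0 lay wholly below at either concentration. The summed level of these 18 enzymes was 989 to 1006 CPM in Ctrl., 1019 to 1083 at 10 nM and 1097 to 1252 at 20 nM, so the 3 groups did not overlap. The highest value at 20 nM, 1252 CPM, was that of the third library. The 8 fatty acid and lipid genes together also stood in 3 steps, at 2405 to 2588, 2633 to 2681 and 2836 to 3178 CPM, most of which came from FASN, ACLY, SCD and FADS2. Here too the highest value, 3178 CPM, was that of the third 20 nM library.

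**Figure D1:**
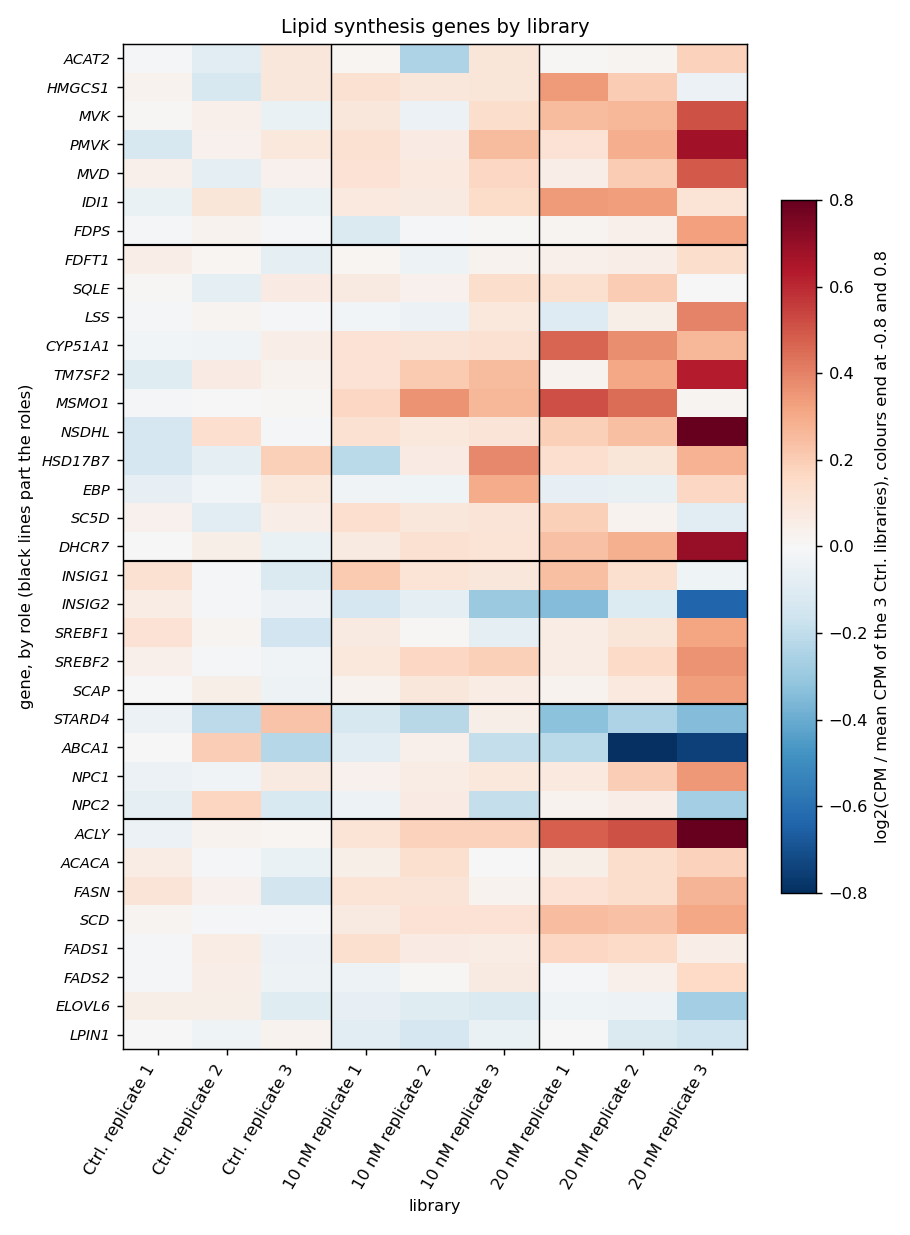
Level of each of the 35 genes (rows, grouped by role) in each of the 9 libraries (columns), as log2 of CPM over the mean CPM of the 3 Ctrl. libraries, with colours ending at -0.8 and 0.8. Reds are deeper at 20 nM than at 10 nM for ACLY, CYP51A1 and SCD, and the third 20 nM library has both the darkest reds (NSDHL and ACLY) and near-Ctrl. levels of MSMO1 and HMGCS1.

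Within the mevalonate branch, 3 of 7 enzymes rose at 20 nM (IDI1, HMGCS1 and MVK) and PMVK was added in the dose trend. IDI1 (chr10:1039152-1049119), which isomerises isopentenyl diphosphate, stood at 34.3, 38.0 and 34.3 CPM in Ctrl., 37.5, 37.4 and 39.3 at 10 nM, and 45.0, 44.8 and 38.3 at 20 nM. Its 20 nM libraries were all above Ctrl., the third only just. IDI1 rose 1.27-fold at 20 nM (log2 0.35 ± 0.068 SE, adjusted p = 0.00491, and 0.0501 with the replicate block), whereas at 10 nM its log2 difference was 0.12 ± 0.061 SE with an adjusted p of 0.39.

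HMGCS1 (chr5:43287470-43313512) encodes the cytosolic HMG-CoA synthase that opens the branch. Its Ctrl. levels were 56.7, 50.8 and 59.2 CPM, its 10 nM levels 60.4, 59.1 and 59.5, and its 20 nM levels 70.5, 64.0 and 53.8. The third 20 nM library lay within the Ctrl. range, so the raw levels overlapped. The fitted rise at 20 nM was 1.22-fold (log2 0.29 ± 0.067 SE, adjusted p = 0.0125), and without that library it was 0.27 (adjusted p = 0.0138). Without the first 20 nM library, which had the highest level, HMGCS1 fell short of the threshold at 0.17 (adjusted p = 0.219), and it also did so at 0.17 with the replicate block (adjusted p = 0.242).

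MVK (chr12:109573255-109598125), mevalonate kinase, was measured at 52.6, 53.7 and 50.4 CPM in Ctrl., at 55.7, 50.6 and 57.6 with 10 nM, and at 62.2, 62.9 and 74.4 with 20 nM. All 20 nM libraries lay above the 6 others. MVK rose 1.19-fold at 20 nM (log2 0.25 ± 0.063 SE, adjusted p = 0.0204), and its 3′ UTR holds one of the seed matches printed above. The call was lost without Ctrl. replicate 3 (0.20, adjusted p = 0.0831) and without 20 nM replicate 2 (0.26, adjusted p = 0.0687), and it held in the dose trend in each leave-out.

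PMVK, phosphomevalonate kinase, had 30.4, 34.1 and 35.2 CPM in Ctrl., 36.2, 34.7 and 39.6 at 10 nM, and 36.0, 40.6 and 52.8 at 20 nM. Its 20 nM level was led by the third library. PMVK passed only in the dose trend (log2 0.24 ± 0.067 SE per 20 nM, adjusted p = 0.026), and without that library its adjusted p was 0.0953. It passed there in 11 of 18 alternatives and in 5 of the 9 that left out a library, and at 20 nM it passed with the replicate block (0.37, adjusted p = 0.0299). The 3 enzymes of the branch that passed in no comparison were MVD, FDPS and ACAT2, with fitted log2 differences at 20 nM of 0.10, 0.01 and -0.0025. MVD decarboxylates mevalonate diphosphate, FDPS makes farnesyl diphosphate and ACAT2 is a cytosolic thiolase. The branch was thus uneven, with both of its end steps, thiolase and farnesyl diphosphate synthase, near 0.

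**Figure D2:**
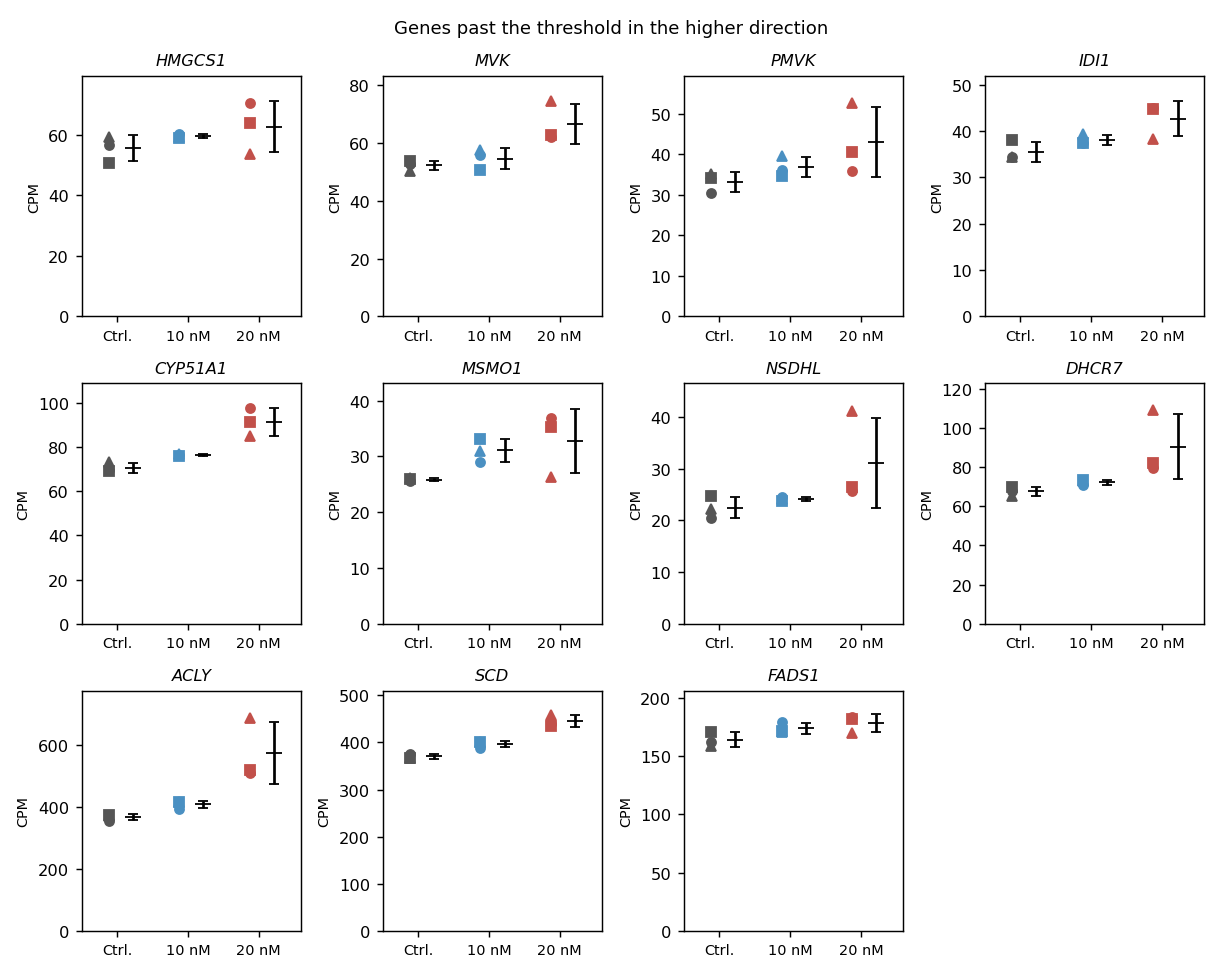
CPM in each library for the 11 genes past the threshold in the higher direction at 20 nM or in the dose trend (circle, square and triangle for replicates 1, 2 and 3, with the group mean and SD in black beside them). CYP51A1, SCD and ACLY rise in steps without overlap between the 3 groups, while MSMO1 and HMGCS1 return to the Ctrl. level in the third 20 nM library.

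From farnesyl diphosphate to cholesterol, 3 of 11 enzymes rose at 20 nM, namely CYP51A1, MSMO1 and DHCR7, and NSDHL rose in the dose trend. CYP51A1 (chr7:92084987-92134803), lanosterol 14-alpha-demethylase and the first step after the ring is closed, held 69.7, 69.3 and 73.3 CPM in Ctrl., 76.7, 75.9 and 77.1 at 10 nM, and 97.7, 91.4 and 85.0 at 20 nM. These 3 groups did not overlap. CYP51A1 rose 1.34-fold at 20 nM (log2 0.43 ± 0.051 SE, adjusted p = 0.000197) and also from 10 nM to 20 nM (0.30 ± 0.048 SE, adjusted p = 0.00535). It passed at 20 nM in all 18 distinct alternatives run, with adjusted p up to 0.00879. The step from 10 nM to 20 nM was lost without 20 nM replicate 1 (0.23, adjusted p = 0.126).

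MSMO1 (chr4:165327667-165343164), the methylsterol oxidase that acts on the products of CYP51A1, had the tightest Ctrl. levels of the called genes, at 25.6, 25.9 and 26.0 CPM. It reached 29.0, 33.2 and 31.0 CPM at 10 nM and 36.9, 35.2 and 26.2 at 20 nM. The 10 nM libraries all lay above Ctrl., and the third 20 nM library lay just above the highest Ctrl. value, far below its partners. MSMO1 rose 1.41-fold at 20 nM (log2 0.50 ± 0.080 SE, adjusted p = 0.00148), the largest rise among the members in that comparison, and with the replicate block its 0.33 missed the threshold (adjusted p = 0.0737). At 10 nM its difference of 0.31 ± 0.072 SE missed the threshold (adjusted p = 0.0825), and it passed there with the DESeq2 Wald test (adjusted p = 0.0356) and without 10 nM replicate 1 (adjusted p = 0.0406).

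DHCR7 (chr11:71428193-71452868) reduces 7-dehydrocholesterol to cholesterol. Levels were 67.8, 70.0 and 65.2 CPM in Ctrl., 71.1, 73.5 and 73.0 at 10 nM, and 79.7, 82.4 and 109.6 at 20 nM, in 3 steps without overlap. The fitted rise at 20 nM was 1.18-fold (log2 0.24 ± 0.053 SE, adjusted p = 0.011) and 0.26 without the third library (adjusted p = 0.00354). It fell short without Ctrl. replicate 3 (0.18, adjusted p = 0.0549).

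NSDHL, the sterol dehydrogenase that removes the carboxyl group left by MSMO1, was at 20.5, 24.7 and 22.3 CPM in Ctrl., 24.5, 23.8 and 24.1 at 10 nM, and 25.7, 26.5 and 41.3 at 20 nM. Replicate 3 of 20 nM was far above the other 8. NSDHL passed in the dose trend only (0.29 ± 0.083 SE, adjusted p = 0.026) and did not without that library (adjusted p = 0.0824). The trend passed in 11 of 18 alternatives and in 5 of the 9 that left out a library. Like MVK it carries a seed match and was not lower with the mimic.

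The other 7 enzymes of this stretch passed in no comparison. Squalene synthase FDFT1 and squalene epoxidase SQLE gave 0.05 and 0.16 on the log2 scale at 20 nM, and SQLE passed without the third 20 nM library (0.16, adjusted p = 0.0437). The cyclase LSS gave -0.06, the reductase TM7SF2 0.13 (0.33 with the replicate block, adjusted p = 0.045), HSD17B7 0.06, the isomerase EBP -0.10 and the desaturase SC5D 0.13. FDFT1, with the 8-mer, thus differed little from Ctrl. HSD17B7 has near-identical copies elsewhere in the genome that can share reads, so its value is uncertain. Over all 18 sterol enzymes, 6 rose at 20 nM (33.3%, beside 7.8% of all genes) and 8 in the dose trend (44.4%, beside 9.84%). In the separate fit of genes with a mean of at least 10 CPM, 11.7% rose at 20 nM and 16.3% in the dose trend. Of the 18 enzymes 0 fell, and their median log2 change at 20 nM was 0.15. With the replicate block, HMGCS1, IDI1 and MSMO1 lost the call at 20 nM, and PMVK and TM7SF2 gained it.

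**Figure D3:**
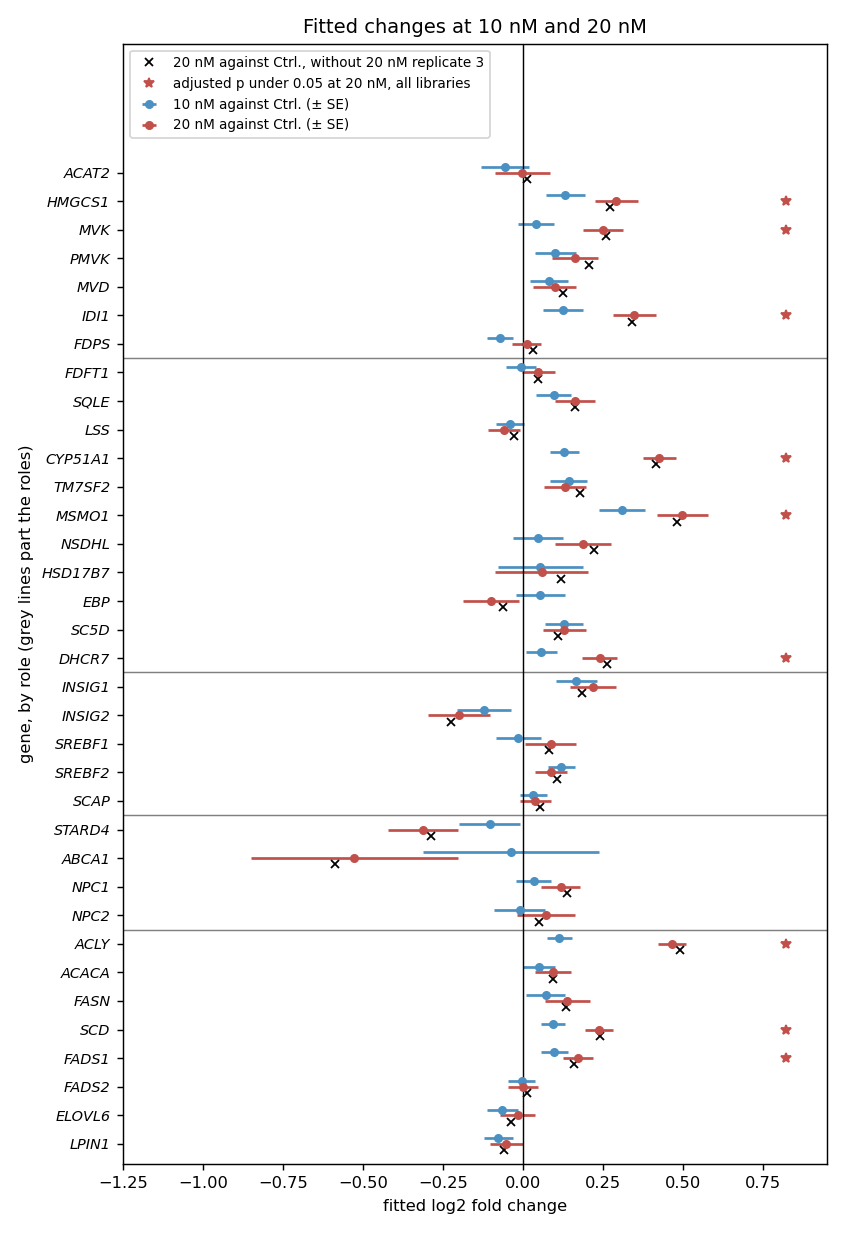
Fitted log2 fold change against Ctrl. (horizontal axis) of each of the 35 genes at 10 nM (blue) and 20 nM (red) with bars of 1 SE, and at 20 nM without the third 20 nM library (crosses). Stars mark the 9 genes past the threshold at 20 nM, and all 9 crosses lie on the same side of 0 as their red points. The red points come from a fit whose surrogate variable already set that library apart.

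Among the 8 genes of fatty acid and lipid synthesis, ACLY, SCD and FADS1 rose at 20 nM. ACLY (chr17:41866917-41930542), ATP citrate lyase, makes the cytosolic acetyl-CoA used by both the sterol and the fatty acid branch. It was measured at 356, 374 and 371 CPM in Ctrl., at 395, 416 and 416 with 10 nM, and at 510.2, 521 and 689 with 20 nM. No 2 groups overlapped. ACLY rose 1.38-fold at 20 nM (log2 0.46 ± 0.043 SE, adjusted p = 3.2e-05) and from 10 nM to 20 nM by 0.35 ± 0.040 SE (adjusted p = 0.000498). In the dose trend its 0.53 ± 0.051 SE per 20 nM was the largest rise of the 35 genes. It passed at 20 nM in all 18 alternatives, at 0.49 without the third 20 nM library.

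SCD (chr10:100347233-100364826), stearoyl-CoA desaturase, which makes oleate, held 376, 368 and 367 CPM in Ctrl., 389, 401 and 401 at 10 nM, and 440.1, 435 and 459 at 20 nM. These were again 3 steps, with the third 20 nM library close to its partners. SCD rose 1.18-fold at 20 nM (log2 0.24 ± 0.042 SE, adjusted p = 0.00301) and passed in all 18 alternatives run on that comparison. Its difference between 20 nM and 10 nM was 0.14 ± 0.040 SE (adjusted p = 0.0808).

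FADS1 (chr11:61799627-61829318) encodes the delta-5 desaturase of polyunsaturated fatty acids. It stood at 163, 171 and 159 CPM in Ctrl., 179, 172 and 171 at 10 nM, and 184, 182 and 170.1 at 20 nM, so the groups overlapped. The rise at 20 nM was 1.12-fold (log2 0.17 ± 0.047 SE, adjusted p = 0.0316). It was lost in 4 of the 9 fits that left out a library, among them those without Ctrl. replicate 3 (adjusted p = 0.106) and without 20 nM replicate 2 (adjusted p = 0.134), and with the replicate block (0.12, adjusted p = 0.149). FADS1 lies on the minus strand and overlaps FADS2 (chr11:61792980-61867354) on the plus strand, and whether strand was used in counting is not stated, so the 2 genes can exchange reads.

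ACACA and FASN passed in no comparison of the reported fit. Of 18 alternatives, FASN passed in 1 at 20 nM and in 3 in the dose trend, and ACACA in 1 in the dose trend. ACACA, acetyl-CoA carboxylase, differed by 0.09 ± 0.056 SE at 20 nM (adjusted p = 0.32) and FASN, fatty acid synthase, by 0.14 ± 0.070 SE (adjusted p = 0.219). FASN nevertheless lay above Ctrl. in every 20 nM library, at 1067, 1086 and 1190 CPM beside 1055, 1007 and 888, so its raw levels did not overlap while its fitted difference fell short. The delta-6 desaturase FADS2, the elongase ELOVL6 and the phosphatidate phosphatase LPIN1 gave -0.0013, -0.02 and -0.05 at 20 nM. ELOVL6 holds a pair of 7-mer seed matches.

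Of the 5 regulators, 0 passed the threshold at 20 nM by edgeR (beside 13.9% of all genes) and by the DESeq2 Wald test (12.2%), and 1 (INSIG1) had an unadjusted p under 0.05. Levels of the SREBP-2 gene SREBF2 were 156, 149.7 and 149 CPM in Ctrl., 160.5, 170.0 and 173 at 10 nM, and 158, 169 and 195 at 20 nM. Both mimic groups lay above Ctrl., yet the fitted differences of 0.12 ± 0.043 SE and 0.09 ± 0.049 SE had adjusted p of 0.239 and 0.273. SREBF1, the SREBP-1 gene, was at 162, 151 and 134 CPM in Ctrl., 157, 149.8 and 141 at 10 nM, and 155, 159 and 186 at 20 nM, with overlapping groups and a difference of 0.09 ± 0.080 SE at 20 nM (adjusted p = 0.538). The escort SCAP held 153, 158 and 148 CPM, then 156, 163 and 159.6, then 156, 161 and 193, and its difference at 20 nM was 0.04 ± 0.048 SE (adjusted p = 0.669). For SREBF1, SREBF2 and SCAP alike, the third 20 nM library was the highest of the 9.

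The INSIG pair, both of which hold SCAP in the endoplasmic reticulum, had opposite signs. INSIG1, itself a gene that SREBP turns on, was at 39.1, 35.6 and 33.1 CPM in Ctrl., 41.6, 38.7 and 38.2 at 10 nM, and 42.5, 39.2 and 35.1 at 20 nM. Its groups overlapped and its 0.22 ± 0.071 SE at 20 nM fell just short (adjusted p = 0.0605). INSIG2 (chr2:118088452-118110997) was at 24.1, 22.8 and 22.3 CPM in Ctrl., 21.0, 21.9 and 18.8 at 10 nM, and 18.1, 21.4 and 14.8 at 20 nM. All 6 mimic libraries lay below all 3 Ctrl. libraries. INSIG2 fell in the dose trend (log2 -0.28 ± 0.089 SE per 20 nM, adjusted p = 0.0462), close to the threshold, and did not pass at 20 nM alone (-0.20 ± 0.097 SE, adjusted p = 0.201). Without the third 20 nM library, which had the lowest level, the dose trend had an adjusted p of 0.103. The trend passed in 8 of 18 alternatives and in 4 of the 9 that left out a library, and with the replicate block INSIG2 also passed at 20 nM (-0.36, adjusted p = 0.0374).

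**Figure D4:**
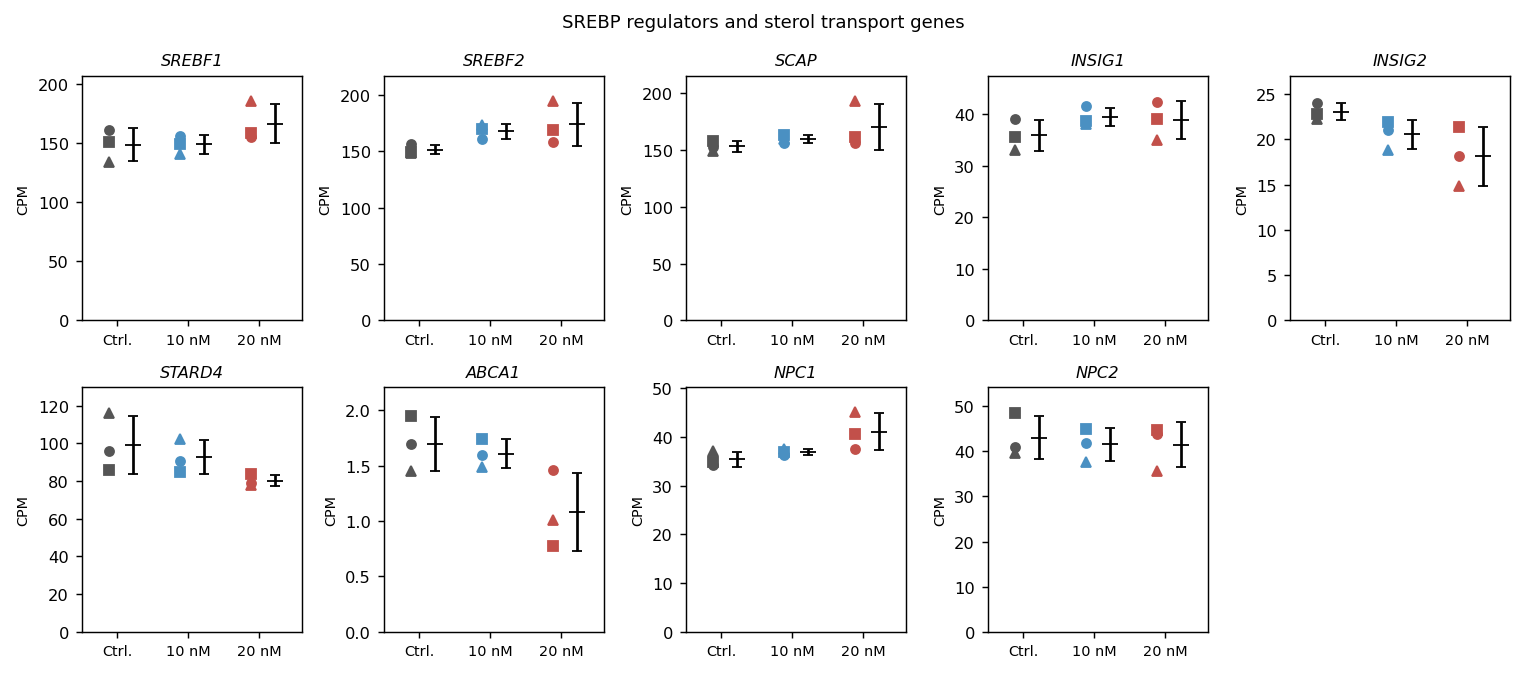
CPM in each library for the 5 SREBP regulators (upper row) and the 4 sterol transport genes (lower row), with circle, square and triangle for replicates 1, 2 and 3 and the group mean and SD in black beside them. INSIG2 is the only regulator whose 6 mimic libraries all lie below Ctrl., and STARD4 at 20 nM lies below the other groups.

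Of the 4 sterol transport genes, 0 passed at 20 nM by edgeR (beside 13.9% of all genes) and by the DESeq2 Wald test (1, STARD4, at an unadjusted p under 0.05) and STARD4 passed in the dose trend. STARD4 (chr5:111496033-111512590), a soluble carrier that moves cholesterol between membranes, had 95.9, 85.6 and 116 CPM in Ctrl., 90.6, 84.9 and 102 at 10 nM, and 79.1, 83.5 and 78.0 at 20 nM. Its 20 nM libraries lay below the 6 others, and Ctrl. and 10 nM overlapped widely. STARD4 fell in the dose trend by 0.31 on the log2 scale (SE 0.10, adjusted p = 0.0497). At 20 nM its -0.31 ± 0.11 SE had an adjusted p of 0.076, which became 0.0099 at -0.29 without the third 20 nM library. Without Ctrl. replicate 3, its highest library, the dose trend was -0.20 (adjusted p = 0.192), and it passed in 11 of 18 alternatives and in 6 of the 9 that left out a library. The lysosomal cholesterol exporters NPC1 and NPC2 gave 0.12 and 0.07 at 20 nM. ABCA1, the efflux pump of the cell membrane, was scarce, at 1.45 to 1.95 CPM in Ctrl. and 0.774 to 1.46 at 20 nM, and its -0.53 ± 0.32 SE did not pass (adjusted p = 0.321).

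The seed matches can be read beside these values. Among the 6 members with a match, 1 rose (MVK) and 0 fell at 20 nM, and in the dose trend 2 rose (MVK and NSDHL) and 2 fell (INSIG2 and STARD4). Both members that fell in the dose trend held a match, and 9 of the 29 members without one rose there and 0 fell. Over all genes, 7.8% rose and 6.08% fell at 20 nM, and 9.84% rose and 7.69% fell in the dose trend. All genes were not split by match. INSIG2 and STARD4 lay at adjusted p of 0.0462 and 0.0497 and passed in 8 and 11 of 18 alternatives. Whether a match had a part in any change was not tested. The median log2 change at 20 nM was 0.01 over the 6 and 0.12 over the 29.

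**Figure D5:**
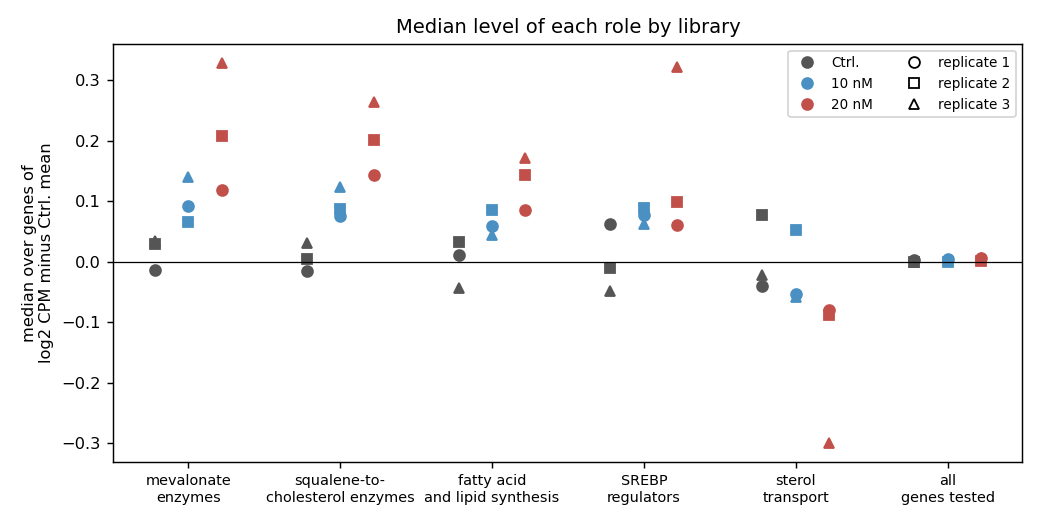
Median over the genes of each role of log2 CPM minus the gene's Ctrl. mean, in each library (colour for the group, circle, square and triangle for replicates 1, 2 and 3), with all 14943 genes at the right. For the mevalonate, squalene-to-cholesterol and fatty acid genes all 20 nM libraries lie above Ctrl., for sterol transport they lie below, and all genes stay near 0.

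Levels were compared between genes per length, as CPM per kb of exonic bases (GENCODE 44). These bases are the union of all annotated exons of a gene over its transcripts, which can exceed the length of its messenger. They came to 10553 for FADS2 and 3718 for FDPS, so the order of genes depends on this choice of length. On that scale FASN, SCD and ACLY had the highest values of the 35 in Ctrl., with FASN at 105.5 ± 9.2, SCD at 70.6 ± 0.991 and ACLY at 70.5 ± 1.91 (SD, n = 3). SCD and ACLY did not differ beyond their spread. FDPS (35.8 ± 0.643) and PMVK (33.1 ± 2.49) had the highest values of the sterol enzymes. HMGCS1 and IDI1 were lower, at 8.39 ± 0.652 and 8.28 ± 0.495, and ABCA1 was last at 0.15 ± 0.0218. At 20 nM, ACLY at 110.2 ± 19.3 was above SCD at 84.8 ± 2.41 in mean value on that scale and near FASN at 119.5 ± 7.08.

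Other genes of the same pathways were counted from lists apart from the 35. Of 30 further sterol genes tested, 6 rose and 3 fell at 20 nM, beside 7.8% and 6.08% of all genes, and 8 rose and 3 fell in the dose trend, beside 9.84% and 7.69%. ACAT1, the mitochondrial thiolase (1.23-fold at 20 nM, adjusted p = 0.00194, and 0.0681 with the replicate block), MBTPS1, the Golgi protease that makes the first cut in SREBP (1.23-fold, adjusted p = 0.00342), and SPRING1, a protein needed for SREBP signalling (1.22-fold, adjusted p = 0.00507), rose. LBR, a nuclear membrane protein that also has sterol reductase activity, fell by 0.33 on the log2 scale (adjusted p = 0.000457) and already by 0.22 at 10 nM (adjusted p = 0.0257, and 0.212 with the replicate block), the only gene of both lists past the threshold there. ABCG1, a sterol efflux pump, fell by 0.54 (adjusted p = 0.00482) and NFYB, a subunit of NF-Y, by 0.25 (adjusted p = 0.0245). Of 34 further fatty acid genes, 6 rose and 0 fell at 20 nM, and 9 rose and 1 fell in the dose trend, to be read beside the same shares of all genes. GPAM, which starts glycerolipid synthesis (1.36-fold, adjusted p = 0.000259), ACSL3, an acyl-CoA synthetase (1.29-fold, adjusted p = 0.00115, and 0.123 with the replicate block), and MCAT of mitochondrial fatty acid synthesis (1.33-fold, adjusted p = 0.0127) rose at 20 nM. SCD5, a second stearoyl-CoA desaturase, fell in the dose trend by 0.30 (adjusted p = 0.00756) and also passed at 20 nM with the replicate block (-0.34, adjusted p = 0.0145), whereas SCD rose. Their median log2 changes at 20 nM were 0.03 for the sterol and 0.09 for the fatty acid list. Without the third 20 nM library, 9 sterol genes rose and 3 fell at 20 nM and 7 fatty acid genes rose and 1 fell. The shares of all genes were then 9.78% higher and 7.99% lower. Each gene named here passed at 20 nM in its direction without that library.

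Without the third 20 nM library, the 9 genes that rose at 20 nM all passed, SQLE rose as well and STARD4 fell. This makes 11 calls, beside 17.8% of all genes. Since the surrogate variable already set that library apart, agreement between the 2 fits was largely built in. Without that library the dose trend held 10 calls, beside 18.5% of all genes, and lost PMVK, NSDHL and INSIG2. In CPM, the remaining 20 nM libraries lay wholly above Ctrl. for 17 members, beside 23% of all genes, and wholly below for 2, beside 21.7%. In that library the members moved in both directions relative to its partners. HMGCS1, SQLE, SC5D, INSIG1 and FADS1 lay within the Ctrl. range there and MSMO1 just above it. MVK, PMVK, NSDHL, DHCR7, TM7SF2, ACLY and SCD were among the members that had their highest level of all 9 libraries there. Without surrogate variables and with all 9 libraries, 5 members rose at 20 nM, namely MVK, CYP51A1, DHCR7, ACLY and SCD, beside 3.83% of all genes.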

How the data were processed

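Libraries of SH-Sy5y cells (3 per group) were made from polyadenylated RNA, pooled from a pair of wells where possible, and grouped by their titles. Per the labels and methods, the authors ran salmon against GRCh38.p13, added up transcripts that share a gene symbol and filtered low genes, and the deposited table holds estimated counts for 14943 genes (88.8% of values not whole). The other deposited tables, log values corrected for surrogate variables and the authors' own fold changes and p-values, were not used.

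Estimated counts were rounded and fitted with edgeR 4.0.16 in R 4.3.3 (TMM, filterByExpr removed 0 genes) over all 9 libraries. The fits held 1 (group) or 2 (concentration) surrogate variables from sva 3.50.0 (seed 1, prior count 2). Their number came from num.sv and was held between 1 and 3, so the 1 of the group fit may be the lower limit. Quasi-likelihood p-values were adjusted over 14943 genes, with a threshold of 0.05. An SE is the log2 change divided by the square root of F. Fold changes come from the model, and CPM levels are not corrected. Replicates are separate samples by their titles only, so p-values measure the spread between libraries, which may be technical. No 2 libraries of a group agreed within sampling noise (chi-square per degree of freedom at least 4.69). Totals of 17.4 to 28.2 M limit precision for ABCA1 alone among the members, whose mean was under 2 CPM.

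Alternatives were DESeq2 1.42.0, other scalings, other numbers of surrogate variables, a mean of at least 10 CPM, a replicate block, mimic present or absent, and leaving out each library. The numbers in the titles were taken to pair the libraries of Ctrl. with those of either mimic group, since the deviations of every such pair correlated above 0.1 (0.142 to 0.185 with 10 nM and 0.107 to 0.116 with 20 nM). They were not taken to pair 10 nM with 20 nM, because replicate 2 gave 0.0288. Replicates 1 and 3 gave 0.174 and 0.176 there, above every value of Ctrl. with 20 nM, so a pairing across all groups remains possible. Fits that dropped 20 nM replicate 3 and also removed or re-estimated the surrogate variables, and the count of levels that do not overlap without that library, were added after seeing the data. GENCODE 44 (GRCh38.p14) gave gene positions, exonic bases and 3′ UTRs: 13144 genes were found by identifier, 712 through their symbol, and 1087 had no protein-coding transcript there. Sequences came from RefSeq and, for UTR sites, from GENCODE transcripts. FDFT1, LSS and ACACA were among those matched by symbol. The members, their roles and the other lists were chosen with earlier results of these data known. Values in every library are given for each regulator and for genes past the threshold in any comparison (at most 4 per role). Of the further pathway genes, the 3 strongest by adjusted p in the dose trend are named in each direction and list, where the rule allowed 4. A neuroblastoma marker that entered the marker counts is not reported here by itself. Python 3.11.15 with pandas 2.3.3 and matplotlib 3.10.9 was used.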

Additional observations from a re-analysis of the deposited data

How the results depend on the processing

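Of the 9 genes that rose at 20 nM, ACLY, CYP51A1 and SCD passed in all 18 distinct alternatives, DHCR7 in 17, IDI1, MSMO1 and MVK in 16, HMGCS1 in 15 and FADS1 in 12, and no called gene changed direction in any alternative run. Without surrogate variables the members called were 0 at 10 nM, 5 at 20 nM, 0 between 20 nM and 10 nM, and 5 in the dose trend. The further pathway genes called were 0, 7, 0 and 10, and the shares of all genes 0.0335, 6.38, 0.448 and 8.27%. With the number of surrogate variables re-estimated and without 20 nM replicate 3, the calls were 5, 17, 8 and 10 members and 6, 26, 9 and 21 further genes. There the shares of all genes also rose, to 8.82, 29.2, 10 and 18.5% from 0.649, 13.9, 2.79 and 17.5% in the reported fit. With no surrogate variables and without that library, 1 further gene passed between 20 nM and 10 nM. With mimic present or absent in place of concentration, 0 members and 2 further genes passed in the trend, beside 1.11% of all genes. DESeq2 called 1 member and 2 further genes at 10 nM, and a mean of at least 10 CPM gave 2 further genes there. Leaving out 1 library gave 0 to 1 members and 0 to 2 further genes at 10 nM, 6 to 11 and 9 to 20 at 20 nM, 1 to 2 and 0 to 3 between 20 nM and 10 nM, and 8 to 19 and 15 to 23 in the dose trend. In the same order, the shares of all genes were 0.228 to 1.07%, 7.19 to 17.8%, 0.743 to 3.09% and 11.2 to 26.6%. The lowest dose trend count of 8 came without Ctrl. replicate 3 (13.1% of all genes) and the highest of 19 without 20 nM replicate 1 (26.6%). The lowest count of 6 at 20 nM came without Ctrl. replicate 3 (9.93%). The whole set of genes thus shifted along with the members. The causes of these shifts were not tested.

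With a replicate block in place of surrogate variables, 0 members and 0 further genes passed at 10 nM, 8 and 15 at 20 nM, 1 and 1 between 20 nM and 10 nM, and 12 and 17 in the dose trend. The shares of all genes were 0.0201, 13.6, 0.83 and 16.4%. Under the block HMGCS1, IDI1, MSMO1 and FADS1 lost the call at 20 nM (adjusted p 0.242, 0.0501, 0.0737 and 0.149). There PMVK and TM7SF2 gained it as higher and INSIG2 as lower. In the dose trend HMGCS1, MSMO1 and FADS1 lost it (0.201, 0.0604 and 0.128) and TM7SF2 and NPC1 gained it, and between 20 nM and 10 nM CYP51A1 lost it (0.133). The block changed no other member's call. Seed matches were found in 6 members with the longest or with any annotated 3′ UTR.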
